A study of Arabidopsis thaliana with 6 samples.

Results

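The genes described here are those of Arabidopsis thaliana that lie on the mitochondrial genome and have at least 1 probe set annotated to them alone, 16 of 13355 genes measured in that way. A probe set is a group of short probes whose signals are combined into a value. The members were chosen by the genome that carries the gene and not by any measured value, though earlier results of these data were known. Together they had 23 probe sets annotated to 1 gene, of which nad1 had 7 and nad5 had 2. Each gene was represented by its brightest such probe set. They are 8 genes of complex I (nad1, nad2, nad4, nad4L, nad5, nad6, nad7 and nad9), 2 of complex IV (cox1 and cox2), 4 of cytochrome c maturation (ccmB, ccmFC, ccmFN1 and ccmFN2), the intron maturase gene matR, and mttB, which encodes a membrane protein of a twin-arginine translocase. The RefSeq gene table lists 32 protein-coding symbols on the mitochondrial genome, and 16 of them are these members.

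The plant mitochondrial genome encodes a small, hydrophobic core of the respiratory chain, while most subunits come from nuclear genes and are imported. Complex I passes electrons from NADH to ubiquinone, and complex IV passes them from cytochrome c to oxygen. The ccm genes serve the pathway that attaches heme to c-type cytochromes. Several transcripts, among them those of nad1, nad2 and nad5, are joined from separately transcribed pieces by trans-splicing, and many are edited at single bases by nuclear-encoded proteins. In flower buds, mitochondria multiply in the tapetum and the developing pollen, and faults of mitochondrial genes are a known source of male sterility in plants. Chromosome 2 of the reference accession carries a large copy of mitochondrial DNA, so some probes can match both genomes.

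RNA came from unopened flower buds of anac019-1 plants, in which a T-DNA insertion (SALK_096295) disrupts ANAC019, a gene for a NAC transcription factor, in Col-0. All 6 arrays came from plants under drought: water was withheld from 24 days of growth, soil moisture was near 35% of capacity after about 80 hours, which the labels define as day 3, and it was held there afterwards. Buds were taken on day 3, day 4 and day 5, from plants 28, 29 and 30 days old, with 2 arrays a day. Drought day and plant age therefore cannot be told apart, and wild-type or watered plants were not analysed here. ANAC019 had no probe set named here, so the labelled genotype was not checked.

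Arrays of the same day correlated at 0.994 to 0.996 over all probe sets, those of days 3 and 4 at 0.992 to 0.995, and those of days 3 and 5 at 0.964 to 0.973. Of the floral identity list only UFO was measured, at 3.92 to 4.17, which is among the dim values of a table running from 2.30 to 14.5. Replicate 1 of day 3 stood apart in its control probes. The 3′ minus 5′ difference of its control transcripts was 2.23, against 1.61 to 1.81 on the other 5 arrays. In a bulk sample, fewer cells of a type and less RNA per cell cannot be told apart.

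All levels below are the deposited log2 values, and all changes are differences of day means on the same scale with the moderated standard error of limma, n = 2 arrays a day. A change counted as higher or lower when its limma p-value, adjusted by the Benjamini-Hochberg method over all 22746 probe sets tested, was under 0.05. Because probes differ in brightness, levels are compared between arrays and not between genes.

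**Figure D1:**
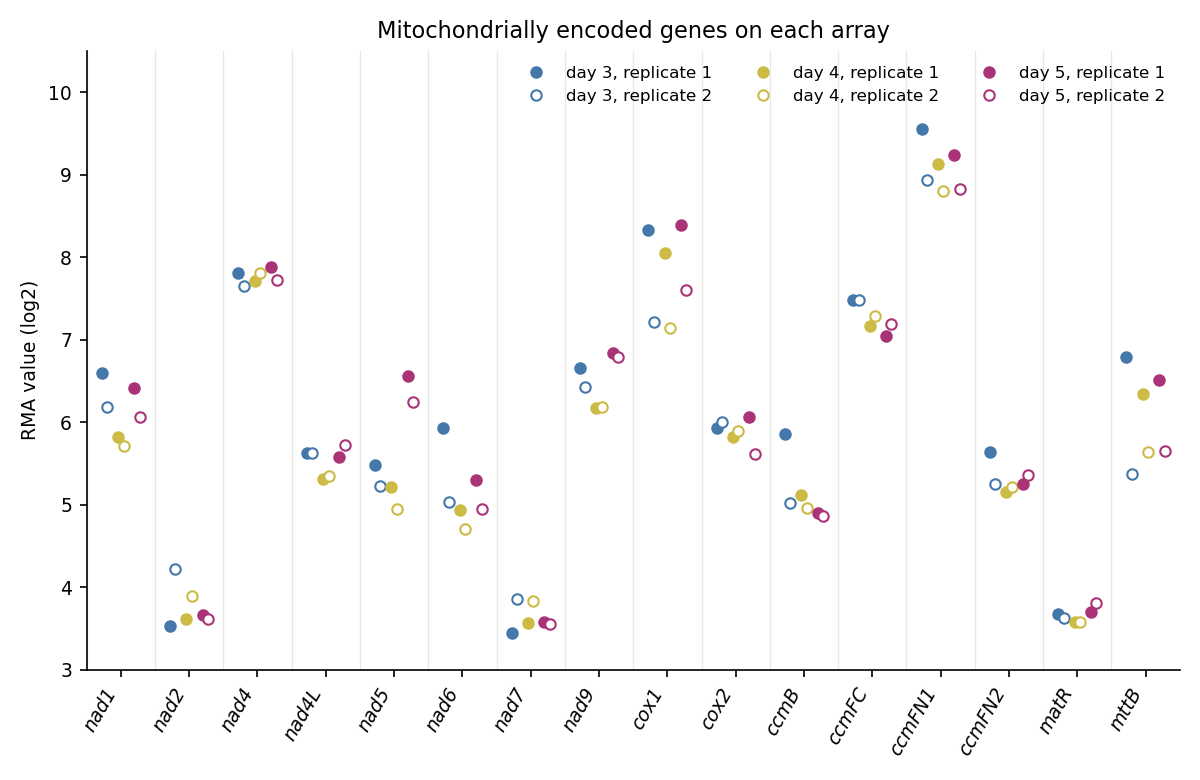
RMA value (log2) of each of the 16 mitochondrially encoded genes on each of the 6 arrays, with days by colour, replicate 1 as filled and replicate 2 as open points. For nad5 both day 5 arrays, at 6.56 and 6.24, lie above the other 4, and for cox1 and mttB the filled points lie above the open points on every day.

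From day 4 to day 5, nad5 and nad9 rose, and no other member passed the test. In all, 2 of 16 members were higher and 0 were lower, where 22.1% of all probe sets tested passed in either direction, 10.4% as higher and 11.6% as lower. From day 3 to day 5, nad5 was higher and ccmFC was lower, 2 of 16 members against a background of 28.8%, 12.9% higher and 15.9% lower. From day 3 to day 4 no member passed, where 0.501% of all probe sets did, 0.268% as higher and 0.233% as lower. The share of members called was 12.5% in each of the 2 comparisons with day 5, below that of the array as a whole. From day 3 to day 4, a count of 0 among 16 genes says little beside so low a background. Whether the members' shares differ from those of the array was not tested.

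Complex I, which makes up 8 of the 16 members, held both genes that rose. That is 25% of its members, where 22.1% of all probe sets passed from day 4 to day 5 in either direction and 10.4% as higher. The gene nad5 encodes a large proton-pumping subunit of the membrane arm, and its transcript is put together by trans-splicing. Its value was 5.48 and 5.22 on the day 3 arrays, 5.22 and 4.94 on day 4, and 6.56 and 6.24 on day 5. Both day 5 arrays lay above all 4 earlier ones by more than any pair of replicates differed. The change from day 4 to day 5 was +1.32 ± 0.16 (SE), 2.50-fold, with a 95% interval of 0.94 to 1.70 (limma adjusted p = 0.00207). Against day 3 the change was +1.05 ± 0.16, 2.07-fold (limma adjusted p = 0.00303). Both calls held under each of the 16 alternative settings, with the adjusted p between 0.000762 and 0.0276 for the first and between 0.00081 and 0.0204 for the second. The probe set behind these values is of the type marked by the array's maker for possible cross-hybridisation. A further alternative, outside those 16, left such probe sets out and read nad5 by the dimmer of its 2 probe sets. Neither call held under it (limma adjusted p = 0.101 against day 4 and 0.57 against day 3).

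The gene nad9 encodes a subunit of the peripheral arm, which faces the matrix. It read 6.65 and 6.43 on day 3, 6.17 and 6.18 on day 4, and 6.83 and 6.80 on day 5. The days did not overlap, with day 4 lowest and day 5 highest. The rise from day 4 to day 5 was 0.64 ± 0.12, 1.56-fold, with an interval of 0.36 to 0.92 (limma adjusted p = 0.00921). Without replicate 1 or replicate 2 of day 4, or with the arrays centred on spiked-in poly-A transcripts, this call was lost, and over the alternatives the adjusted p ran from 0.00465 to 0.238. Against day 3 the difference of 0.27 ± 0.12 did not pass (limma adjusted p = 0.133).

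Other complex I genes had smaller or less certain differences. The membrane-arm gene nad1 read 6.60 and 6.18 on day 3, 5.83 and 5.71 on day 4, and 6.41 and 6.06 on day 5. Day 4 lay below both other days without overlap, yet neither the difference from day 3, −0.62 ± 0.18 (limma adjusted p = 0.271), nor that to day 5, 0.47 ± 0.18 (limma adjusted p = 0.101), passed. For nad4L, a small membrane-arm subunit, the values were 5.63 and 5.62 on day 3, 5.31 and 5.35 on day 4, and 5.57 and 5.72 on day 5. Here too day 4 was lowest without overlap, by −0.30 ± 0.11 from day 3 (limma adjusted p = 0.466) and with a difference of 0.32 ± 0.11 to day 5 (limma adjusted p = 0.0833).

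Of the remaining 4 complex I genes, nad6 ranged from 4.71 to 5.93, and its day 3 replicates alone were 0.90 apart. The range of nad4 was 7.65 to 7.88, with changes between 0.03 and 0.07 in the 3 comparisons. Its interval from day 4 to day 5, −0.24 to 0.33, did not reach the 1.32 of nad5. The probe sets of nad2, at 3.53 to 4.22, and nad7, at 3.45 to 3.86, were among the dimmest of the array, where RMA compresses changes. None of these 4 genes passed in any comparison.

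**Figure D2:**
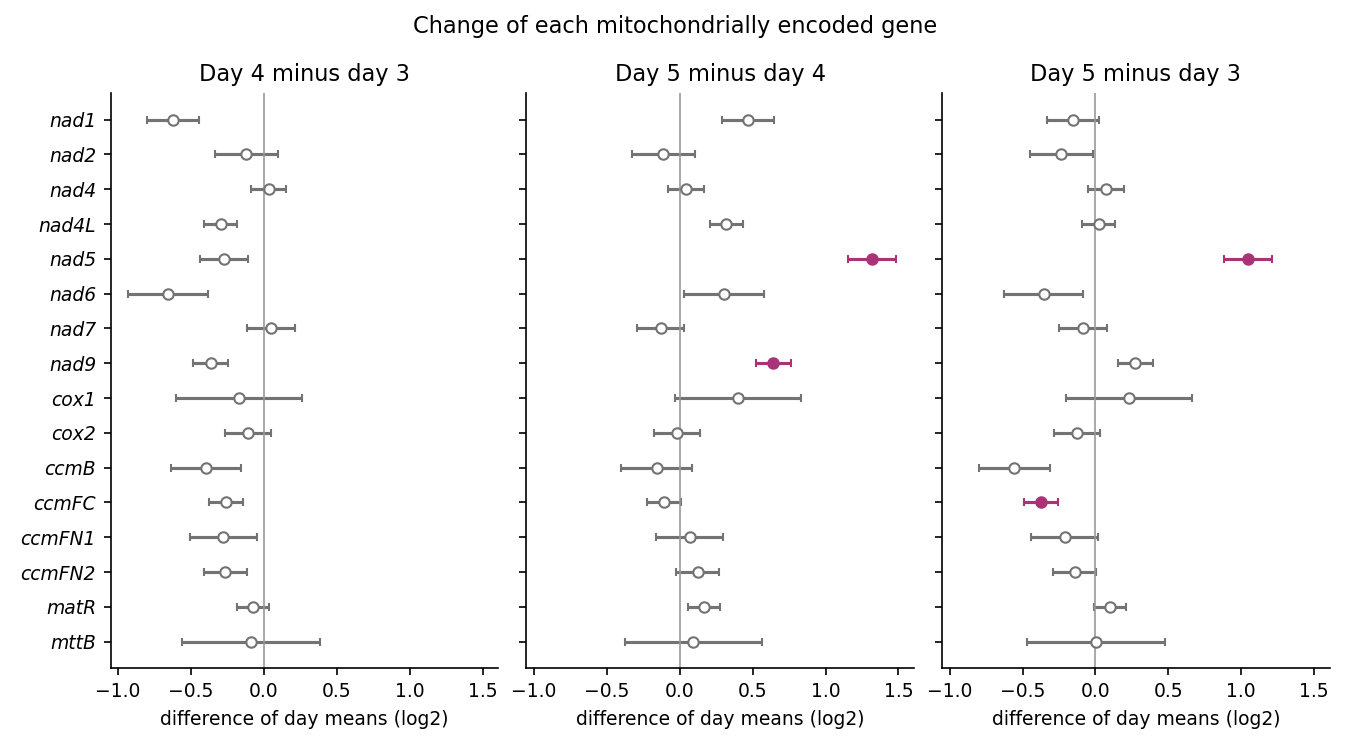
Difference of day means (log2) for each mitochondrially encoded gene in the 3 comparisons, with bars of 1 standard error from limma (n = 2 arrays a day) and filled points where the adjusted p was under 0.05. The filled points are nad5 at 1.32 and nad9 at 0.64 for day 5 minus day 4, and nad5 at 1.05 and ccmFC at −0.37 for day 5 minus day 3.

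Neither complex IV gene passed in any comparison. The gene cox1 encodes the catalytic subunit of cytochrome c oxidase, and read 8.33 and 7.21 on day 3, 8.06 and 7.14 on day 4, and 8.39 and 7.60 on day 5. Replicate 1 was above replicate 2 by 1.12, 0.92 and 0.78 on the 3 days, more than any difference between day means. Its change from day 4 to day 5 was 0.40 ± 0.43 with an interval of −0.61 to 1.40 (limma adjusted p = 0.581). In this fit, which did not pair the replicate numbers, a change as large as that of nad5 was not excluded for cox1. The gene cox2 encodes the subunit that receives electrons from cytochrome c. Its values were 5.93 and 6.01 on day 3, 5.82 and 5.89 on day 4, and 6.06 and 5.62 on day 5. The day 5 replicates lay on either side of all earlier values, and the change from day 4 to day 5 was −0.02 ± 0.16 (limma adjusted p = 0.957).

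The 4 cytochrome c maturation genes had lower means on day 5 than on day 3, with changes from −0.56 to −0.14, but a single member passed. That was ccmFC, which encodes part of the heme lyase, at 7.48 and 7.49 on day 3, 7.16 and 7.28 on day 4, and 7.04 and 7.18 on day 5. Day 3 lay above the 4 later arrays, and the change to day 5 was −0.37 ± 0.12 with an interval of −0.64 to −0.10 (limma adjusted p = 0.0456). This call was lost under 11 of 16 alternatives, among them leaving out any array, and the adjusted p ran from 0.000529 to 0.183.

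The gene ccmB, whose product is the membrane part of an ABC transporter, read 5.85 and 5.02 on day 3, 5.11 and 4.96 on day 4, and 4.90 and 4.86 on day 5. Its change from day 3 to day 5, −0.56 ± 0.24, was larger than that of ccmFC but its day 3 replicates were 0.84 apart and it did not pass (limma adjusted p = 0.129). Without replicate 2 of day 3, the changes from day 3 to day 5 were −0.98 for ccmB and −0.80 for nad6. Day 3 is then replicate 1 alone, the array whose controls stood apart. Without replicate 1 of day 3, the change of nad2 was −0.58. The heme lyase genes ccmFN1 and ccmFN2 did not pass in any comparison. The former read 9.55 and 8.94 on day 3, 9.13 and 8.80 on day 4, and 9.24 and 8.83 on day 5, with replicate 1 above replicate 2 on each day. The latter read 5.64 and 5.25, then 5.15 and 5.21, then 5.25 and 5.36, and differed between day means by at most 0.27.

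The remaining members were an intron maturase and a translocase gene. The probe set of matR, which lies within an intron of nad1 and whose product assists splicing of mitochondrial introns, was dim, at 3.68 and 3.63 on day 3, 3.58 and 3.58 on day 4, and 3.70 and 3.81 on day 5. Its largest change was 0.17 ± 0.11 from day 4 to day 5 (limma adjusted p = 0.331). For mttB the values were 6.79 and 5.37 on day 3, 6.34 and 5.64 on day 4, and 6.52 and 5.66 on day 5. The replicates were 1.42, 0.70 and 0.86 apart, while the day means lay within 0.09 of each other.

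Over the list, 14 of 16 members had a lower mean on day 4 than on day 3, with a median change of −0.26, where the median over all probe sets was −0.005. The members' median was −0.15 without replicate 1 of day 3, the array whose controls stood apart, and −0.43 without replicate 2 of day 3. None of these 14 passed on its own, and 4 members (nad1, nad4L, nad6 and nad9) had an unadjusted limma p under 0.05, a threshold that 2086 of the 22746 probe sets met. From day 4 to day 5 the median change of the members was 0.11, with 11 above 0, and from day 3 to day 5 it was −0.11, with 7 above 0. The medians over all probe sets were −0.04 in both comparisons. Single arrays turned the sign of both members' medians, to −0.01 for day 4 to day 5 without replicate 1 of day 5, and to 0.07 and 0.008 for day 3 to day 5 without replicate 1 of day 3 and without replicate 2 of day 5. With centring on the spike-in controls they were −0.29 and −0.61. Day 4 had the lowest of the 3 day means in 10 of 16 members, in 23 of 69 plastid-encoded genes and in 22.3% of all probe sets.

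The moderated F test over the 3 days was passed by nad5 (limma adjusted p = 0.00254) and nad9 (limma adjusted p = 0.0164), 2 of 16 members against 25.1% of all probe sets. The difference between the daily steps, which asks whether the change from day 4 to day 5 differs from that before it, was 1.59 ± 0.29 for nad5 (limma adjusted p = 0.0395). It was the only member past the threshold, against 1.93% of all probe sets. That call was lost when any array was left out.

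For 2 genes several probe sets were measured, which may read different pieces of a trans-spliced transcript. The second probe set of nad5 was dimmer, with a mean of 4.33, and read 4.57 and 4.17 on day 3, 4.18 and 4.00 on day 4, and 4.43 and 4.59 on day 5. Its change from day 4 to day 5 was in the same direction, 0.42 ± 0.16, but did not pass (limma adjusted p = 0.101). Against day 3 it was 0.14 ± 0.16, and the interval of −0.22 to 0.51 did not reach the 1.05 of the brighter probe set. The rise of nad5 thus rests on a single probe set.

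The 7 probe sets annotated to nad1 alone had means from 3.37 to 6.13, and their changes from day 4 to day 5 ran from −0.07 to 0.59. A single probe set among them passed, at 5.39 and 5.53 on day 3, 5.04 and 5.14 on day 4, and 5.73 and 5.61 on day 5, with a change of 0.59 ± 0.12 (limma adjusted p = 0.012). Its call was lost under 4 of 15 alternatives, 3 of which leave out an array. Against day 3 the changes of the 7 ran from −0.45 to 0.45, and the dimmest passed as higher (limma adjusted p = 0.0404). That call was lost with its sign kept under 8 of 14 alternatives, among them leaving out any array. Under another of the 14, centring on the spike-in controls, it was lost with the sign turned, at −0.0525 (limma adjusted p = 0.807). From day 4 to day 5 the dimmest probe set did not pass (limma adjusted p = 0.0641), but it did with a trended and robust prior (limma adjusted p = 0.045).

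**Figure D3:**
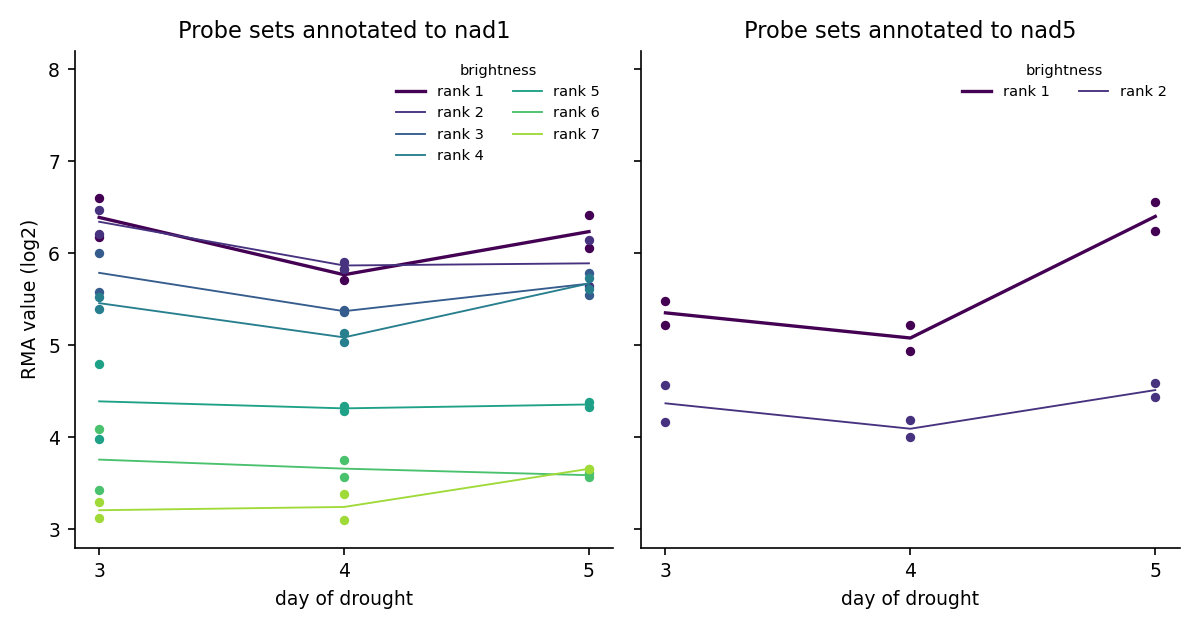
RMA value (log2) by day of drought for the 7 probe sets of nad1 and the 2 of nad5, with a point for each array, lines through the day means, and probe sets ranked by mean brightness. The brightest nad5 probe set climbs from a mean of 5.08 on day 4 to 6.40 on day 5, and the dimmer one from 4.09 to 4.51.

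Replicate 1 was the higher array in 12 of 16 members on day 3, 7 on day 4 and 12 on day 5, with median differences of 0.24, −0.005 and 0.10. Over all probe sets it was the higher array in 48.5%, 47.4% and 54.8%. The pattern was found in part of the members: 7 of 16 were higher in replicate 1 on each of the 3 days, against 17.5% of all probe sets. For cox1 and mttB the difference was over 0.5 on each day, 2 of 16 members, while 0.101% of all probe sets met that condition. Those 2 members also had the largest standard errors, 0.43 and 0.47.

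In the plastid-encoded genes replicate 1 was mostly the higher array on all 3 days, on day 4 too, where it was not in most members. In 51, 53 and 47 of the 69 such genes it was higher on days 3, 4 and 5, with median differences of 0.77, 0.30 and 0.15, and 13 of 69 were over 0.5 on each day. Among 20 nuclear genes of the respiratory chain replicate 1 was higher in 4, 11 and 9, with medians of −0.19, 0.02 and −0.03. Of 4 control measures, 3 were higher in replicate 1 on each day. The hybridisation controls were higher in replicate 1 by 0.50, 0.11 and 0.28, and the 25S ribosomal RNA probe by 0.34, 0.67 and 0.29. The 3′ minus 5′ difference was higher by 0.62, 0.01 and 0.08. The poly-A spike-in controls differed by 0.13, −0.18 and 0.17, with replicate 2 higher on day 4. The part of these measures in the members' differences was not tested.

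**Figure D4:**
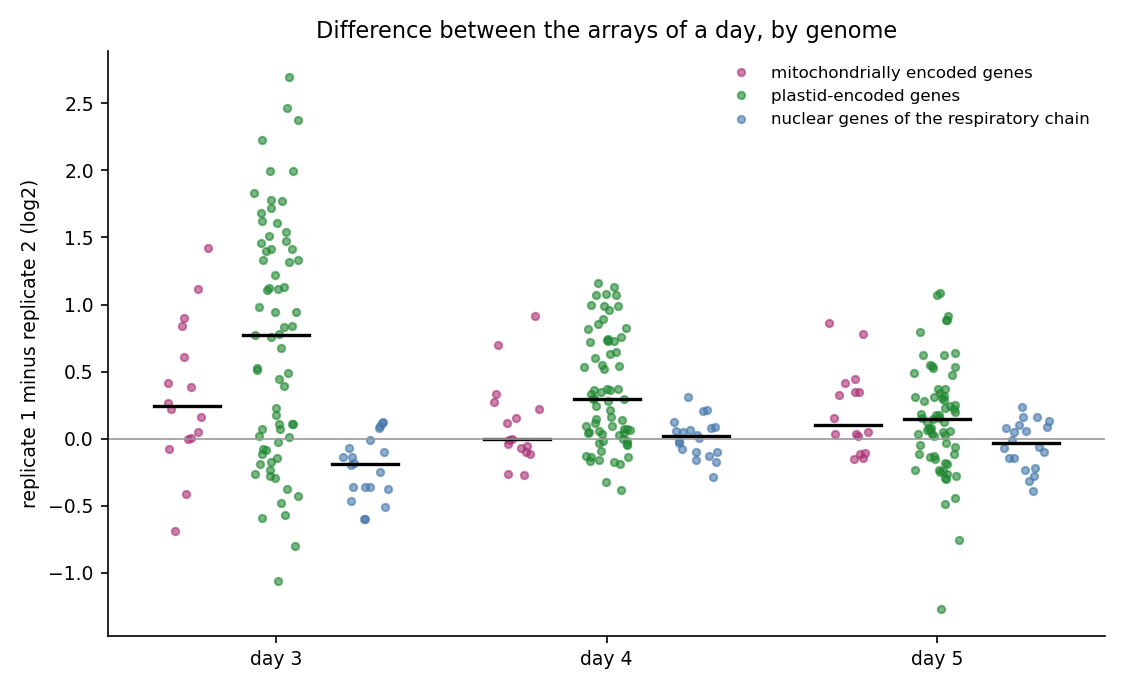
Replicate 1 minus replicate 2 (log2) on each day for 16 mitochondrially encoded genes, 69 plastid-encoded genes and 20 nuclear genes of the respiratory chain, with a point for each gene and black bars at the medians. On day 3 the medians are 0.24, 0.77 and −0.19, and on day 5 they are 0.10, 0.15 and −0.03.

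Probe sets shared by a mitochondrial gene and another gene were not used for the members. Of these, 12 were measured, 11 of them annotated jointly with a chromosome 2 locus. The member nad1 shared a probe set with AT2G07701 and another with AT2G07702. Their changes from day 4 to day 5 were 0.04 ± 0.12 and 0.08 ± 0.15, and neither passed in any comparison. The probe set annotated to atp1, for the alpha subunit of ATP synthase, and AT2G07698 read 7.87 and 7.57 on day 3, 7.60 and 7.39 on day 4, and 8.66 and 8.46 on day 5. Its rise from day 4 to day 5 was 1.06 ± 0.15 (limma adjusted p = 0.0031), and both day 5 arrays were above the other 4. The probe set annotated to rps4, for a ribosomal protein, and AT2G07734 read 6.01 and 5.58, then 5.93 and 5.94, then 6.99 and 6.79. It rose by 0.96 ± 0.16 over the same step (limma adjusted p = 0.00594), a call that was lost without replicate 2 of day 4. Signal from the mitochondrial gene and from the chromosome 2 locus cannot be told apart here.

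Both shared probe sets were also higher on day 5 than on day 3, 1.79-fold for that of atp1 (limma adjusted p = 0.00484) and 2.14-fold for that of rps4 (limma adjusted p = 0.00222). With the arrays centred on the spike-in controls the first of these calls was lost. A further 2 were lower on day 5 than on day 3, those shared by atp9 and AT2G07671, at −0.39 (limma adjusted p = 0.036), and by rps12 and AT2G07675, at −0.49 (limma adjusted p = 0.0494). Most alternatives lost these 2 calls, 9 of 14 for the former and 10 of 14 for the latter. The probe sets that include cob, of complex III, and cox3, of complex IV, did not pass in any comparison.

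Set beside the other organelle genome, the members had higher medians in both comparisons with day 5. Plastid-encoded genes had median changes of −0.16, −0.17 and −0.38 in the 3 comparisons, where the members had −0.26, 0.11 and −0.11. No plastid-encoded gene was higher in any comparison, and 2 of 69, rpl36 and rps2, were lower from day 4 to day 5 and 11 of 69 from day 3 to day 5, where 11.6% and 15.9% of all probe sets were lower. The latter count is 15.9% of the plastid-encoded genes, the same share as over the array. No test was made of the difference between the 2 sets.

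**Figure D5:**
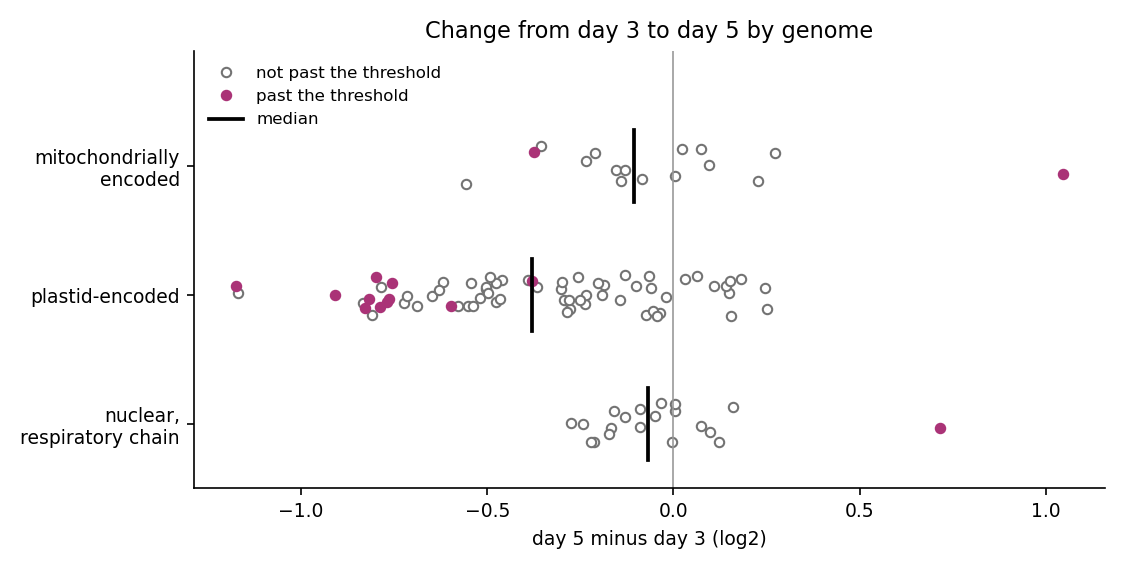
Change from day 3 to day 5 (log2) of each mitochondrially encoded gene, plastid-encoded gene and nuclear gene of the respiratory chain, filled where the limma adjusted p was under 0.05, with black bars at the medians of −0.11, −0.38 and −0.07. Among the mitochondrial genes nad5 lies apart at 1.05, and 11 of 69 plastid-encoded genes are filled, each below 0.

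Nuclear genes that work with the members were followed through lists. Over all probe sets, 22.1% passed in either direction from day 4 to day 5 and 28.8% from day 3 to day 5. Of 20 measured nuclear genes of the respiratory chain, a list that also holds cytochrome c and the maturation gene CCMH, 1 passed. That was CYTC-2, which encodes a cytochrome c. It read 9.65 and 9.57 on day 3, 9.72 and 9.51 on day 4, and 10.21 and 10.44 on day 5, and rose by 0.71 ± 0.13 from day 4 to day 5 (limma adjusted p = 0.00922). The other 19 did not pass in any comparison, and the medians of the list were 0.01, −0.13 and −0.07. Leaving out replicate 2 of day 4 or of day 5, or centring on the spike-in controls, ended the CYTC-2 call for that step.

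Among 5 measured genes of alternative respiration, NDB2 and NDB3 were higher on day 5 than on day 3. Both encode NAD(P)H dehydrogenases of the inner membrane that feed electrons into the chain without passing through complex I. NDB3 read 7.13 and 7.11 on day 3, 7.38 and 7.18 on day 4, and 7.90 and 7.97 on day 5, a rise of 0.81 ± 0.12 from day 3 (limma adjusted p = 0.0022) and of 0.66 ± 0.12 from day 4 (limma adjusted p = 0.00808). The rise from day 4 was lost without replicate 2 of day 4 or of day 5, and with centring on the spike-in controls. NDB2 read 7.30 and 7.33, then 8.01 and 7.85, then 8.17 and 7.99, and was 0.77 ± 0.12 above day 3 on day 5 (limma adjusted p = 0.00316). The calls of both genes against day 3 were also lost with centring on the spike-in controls.

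Of 7 measured organelle RNA and DNA factors, 1 passed, OTP43. It encodes a pentatricopeptide repeat protein that is needed in Arabidopsis for the trans-splicing of nad1. Its values were 4.92 and 4.84 on day 3, 4.81 and 4.80 on day 4, and 4.16 and 4.40 on day 5. It fell by 0.52 ± 0.12 from day 4 to day 5 (limma adjusted p = 0.0215) and by 0.60 ± 0.12 from day 3 (limma adjusted p = 0.00937). The first call was lost without replicate 1 or 2 of day 4 or replicate 1 of day 5. The 1 measured gene of the retrograde list, AT2G21640, did not pass.

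Some markers of the cells within the buds moved over the same days. Of 8 measured late pollen genes, 5 were higher on day 5 than on day 4 and 6 were higher than on day 3. Among them were AGL66, AGL104, ANX1 and ACT12 in both comparisons. Over all probe sets, 10.4% and 12.9% were higher in these comparisons, and 11.6% and 15.9% were lower. The mean level of the 8 was 5.78 and 6.04 on the day 3 arrays, 6.05 and 6.11 on day 4, and 6.70 and 7.08 on day 5. Of 3 measured tapetum genes, SHT was lower in both comparisons, and AMS and AT5G07230 did not pass in any comparison. The mean of the 3 was 10.25 and 10.27 on day 3, 10.26 and 10.41 on day 4, and 9.81 and 9.09 on day 5. Both measured leaf and green tissue genes, PSAN and SBPASE, were lower in both, with a mean of 11.44 and 11.60 on day 3, 11.29 and 11.32 on day 4, and 10.80 and 10.69 on day 5. The 25S ribosomal RNA probe averaged 11.6, 11.9 and 13.0 on the 3 days, and the poly-A spike-in controls 6.45, 6.55 and 6.95. The part of any of these in the change of nad5 and nad9 was not tested.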

How the data were processed

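RNA from 6 samples was hybridised to single-colour Affymetrix arrays. The log2 values are probe set summaries deposited by the authors, and the submitters' processing notes name RMA and affy without versions. RMA gives all arrays a common distribution, so changes are relative to the other transcripts, and it compresses changes of dim probe sets. The sources used here do not state whether more arrays were normalised with these. The array medians lay between 6.97 and 7.03. The number of arrays, 2 a day, limits the precision.

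Of 22810 probe sets, 64 are Affymetrix controls and the other 22746 were tested. Genes were named through the platform annotation and a RefSeq gene table of TAIR10.1. Of the 16 members, 11 were matched by symbol and 5 by synonym (ccmB, ccmFC, ccmFN1, ccmFN2 and mttB), since their gene identifiers matched none in the table. The annotation gave 1 gene for 13513 probe sets, several for 503 and none for 8730. The sources used here name no genome build, so no coordinates are printed.

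Day means were fitted with limma 3.58.1 (R 4.3.3, lmFit and eBayes) on all 6 arrays, with 3 residual degrees of freedom and a prior of 4.69. Tests were two-sided, with Benjamini-Hochberg adjustment over all probe sets, and the procedure was tested on simulated data. Groups and replicate numbers came from the sample titles. The labels do not say that replicates came from separate plants, so p-values describe only how these samples vary, and part or all of that may be technical.

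Values on all 6 arrays are given for up to 4 members per role with the smallest F test p, and other members by their range. Of the nuclear lists, up to 4 members past the threshold are named per comparison. The lists had 48 entries for nuclear genes of the respiratory chain, 41 for organelle RNA and DNA factors and 14 for alternative respiration. A further 7 were for retrograde factors, 14 for tapetum, 13 for late pollen, 9 for floral identity and 6 for green tissue. Most entries were not measured by a probe set of 1 gene. The members and lists were chosen with earlier results of these data known. Of the 16 members, 5 had a probe set marked for possible cross-hybridisation: nad5, nad6, ccmFC, matR and mttB. Alternatives changed the prior, the centring, a filter on means under 5, the array weights, the choice of probe sets, a 2-fold requirement and the arrays used.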

Additional observations from a re-analysis of the deposited data

Results flagged for a closer look

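For nad5, the change from day 4 to day 5 differed from the change from day 3 to day 4, by 1.594 on the log2 scale (± 0.29, SE, n = 2 arrays a day, limma adjusted p = 0.0395 over all probe sets). The earlier step was −0.27 ± 0.16 and the later one +1.32 ± 0.16. The 2 steps share the day 4 arrays. The call was lost when any array was left out, when all probe sets of nad5 were averaged, and when only probe sets of 1 gene were tested.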

How the results depend on the processing

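With 2 arrays a day the precision is low, dim probe sets understate changes, and no alternative can separate drought day from plant age. The median change from day 3 to day 4 and its counts of 0 kept their direction and side of the threshold under each alternative. Centring on the spiked-in poly-A transcripts, which assumes equal amounts added to every sample, moved the median of all probe sets from −0.04 to −0.44 from day 4 to day 5 and from −0.04 to −0.55 from day 3 to day 5. It gave members' medians of −0.29 and −0.61, 1 higher and 3 lower from day 4 to day 5, 11 lower from day 3 to day 5, and 10 by the F test. Under it nad4 and nad4L turned to −0.43 (limma adjusted p = 0.0359) and −0.48 (limma adjusted p = 0.0267) from day 3 to day 5, and the dimmest nad1 probe set to −0.0525 (limma adjusted p = 0.807). It called 917 probe sets higher and 11012 lower from day 4 to day 5, against 2376 and 2644. From day 3 to day 5 it called 1102 higher and 14939 lower of 22746, against 2927 and 3621. The F test was then passed by 14406 of the 22746, against 5718. With cyclic loess the counts from day 4 to day 5 were 2859 higher and 2180 lower.

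From day 4 to day 5 the count of higher members, 2, became 4 with shared probe sets included, and 1 without those marked for cross-hybridisation or at 2-fold or more. From day 3 to day 5 the higher count, 1, became 3 with shared probe sets and 0 without marked ones. The lower count, 1, became 3 with shared probe sets and 0 with a trended and robust prior, cyclic loess, array median centring, array weights, the 4 arrays of the days compared, no marked probe sets, or 2-fold. The F test count, 2, became 4 with shared and 1 without marked probe sets. The step difference, 1, became 2 with array weights and 0 with probe sets of 1 gene only, the mean of a gene's probe sets, or no marked ones.

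Leaving out each array gave 1 to 2 higher from day 4 to day 5, 0 to 2 lower from day 3 to day 5, 1 to 5 by the F test (5 without replicate 2 of day 3) and 0 for the step difference, with medians over the 3 comparisons of −0.43 to −0.15, −0.01 to 0.22 and −0.21 to 0.07. The lone array left on a day is then assumed to vary like the others. Probe sets called over the whole array fell to 15 to 58 of 114 from day 3 to day 4, and numbered between 1366 and 5427 from day 4 to day 5, against 5020 on all arrays.

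Replicate numbers are shared between days but nothing says that they pair the samples. Same-numbered deviations correlated at 0.10, 0.38 and 0.14 over all probe sets for days 3 and 4, days 4 and 5, and days 3 and 5, and at 0.87, 0.82 and 0.67 over the 16 members. With the replicate block, nad1 and its dimmest probe set passed from day 4 to day 5 (limma adjusted p = 0.0303 and 0.0423), and the counts of probe sets called were 123, 5827 and 7333 against 114, 5020 and 6548.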
